A study of Mus musculus with 8 samples.

Results

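Peroxins are the proteins that build peroxisomes. The 9 peroxins described here (Pex2, Pex3, Pex5, Pex6, Pex7, Pex13, Pex14, Pex16 and Pex19) were taken by name and matched to 1 Ensembl gene each among the 52636 genes of the tables, and all 9 were among the 15248 genes that passed the low-count filter. They were measured by RNA sequencing of livers from 8 wild-type male C57BL/6J mice, 4 injected with AAV8-TBG-GFP and 4 with AAV8-TBG-AGXT, 1 library per mouse. The virus, an adeno-associated vector that delivers genes to the liver, was given at 7 weeks of age and carried either green fluorescent protein or human AGXT under TBG, a promoter active in hepatocytes. From 8 weeks of age both groups ate the NASH diet, rich in fat, fructose and cholesterol, for 24 weeks, so that no mouse on standard chow enters these values. The AAV8-GFP mice carry the numbers 303, 311, 314 and 315, and the AAV8-AGXT mice 308, 309, 316 and 319.

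Peroxisomes are small organelles, abundant in hepatocytes, that oxidize very-long-chain fatty acids, finish bile acid synthesis and break down hydrogen peroxide. They have no genome, and every protein in them is imported. Pex3, Pex16 and Pex19 place membrane proteins. Pex5 carries enzymes that end in the carboxy-terminal signal PTS1, Pex7 carries the few with the amino-terminal signal PTS2, and both dock at Pex13 and Pex14. Pex2 belongs to the ubiquitin ligase that marks the receptors for recycling, and Pex6 to the ATPase that pulls them back out of the membrane. The AGXT enzyme, which converts glyoxylate to glycine, is itself a cargo of this pathway.

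The start of 7 of the 9 genes was found in the RefSeq promoter table for GRCm38.p6, in 10 windows, since Pex5 had 3 and Pex16 had 2. Those of Pex2 and Pex19 were not matched. The 250 bases before the start are given 5′ to 3′ for Pex3, the member that passed the test below, for Pex16, its partner with the largest fold change, and for Pex5, the main import receptor. Capitals mark the GC box (GGGCGG) and the CCAAT box, on either strand.
Pex3, chr10:13553143-13553392, minus strand: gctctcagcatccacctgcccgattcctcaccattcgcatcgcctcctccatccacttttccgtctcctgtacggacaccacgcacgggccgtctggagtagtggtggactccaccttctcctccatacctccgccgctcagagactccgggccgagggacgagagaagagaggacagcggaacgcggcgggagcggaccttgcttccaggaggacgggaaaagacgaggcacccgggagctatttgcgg
Pex16, chr2:92374426-92374675, plus strand: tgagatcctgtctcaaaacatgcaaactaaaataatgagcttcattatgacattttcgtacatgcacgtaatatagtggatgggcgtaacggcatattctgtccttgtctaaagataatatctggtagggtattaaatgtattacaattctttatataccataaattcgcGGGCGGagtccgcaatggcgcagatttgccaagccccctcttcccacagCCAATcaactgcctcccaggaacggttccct
Pex5, chr6:124415068-124415317, minus strand: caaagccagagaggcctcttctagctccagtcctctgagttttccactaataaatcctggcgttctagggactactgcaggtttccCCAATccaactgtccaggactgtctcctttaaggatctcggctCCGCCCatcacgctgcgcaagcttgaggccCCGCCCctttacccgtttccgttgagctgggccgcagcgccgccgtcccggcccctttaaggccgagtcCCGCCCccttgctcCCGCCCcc
The Pex3 window held neither motif and was 63.2% G or C. The printed Pex16 window held 1 of each at 42.8%, and the printed Pex5 window held 4 GC boxes and 1 CCAAT box at 61.6%. The other Pex16 window held neither motif at 51.6%. The Pex5 window at 124414864-124415113 held 3 GC boxes and 1 CCAAT box at 80.4%, and that at 124415856-124416105 neither motif at 54.4%. The former overlaps the printed Pex5 window and shares GC boxes with it, and both enter the window counts below. The median over all promoter windows was 52.4%. A GC box stood in 6 of the 10 windows (5 of the 7 genes), against 32.7% of all 32851 windows, and a CCAAT box in 4 of the 10 (3 of the 7 genes), against 33.8%. TATAAA was in 2 of the 10, for Pex14 and Pex16, against 12.4% of windows. The direct repeat that PPARα binds, searched on both strands as 2 exact copies of AGGTCA with 1 base between them, was in no window of these 7 genes and in 0.0335% of all windows. These matches describe letters in the windows and nothing about binding.

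Gene counts summed to 19747909 to 28780140 per AAV8-GFP liver and to 17095433 to 23940200 per AAV8-AGXT liver. Expression is given as CPM, the count of a gene per 1000000 counts of its library, scaled between libraries by the TMM method. The TMM factors did not overlap between the groups, at 1.02 to 1.14 in AAV8-GFP and 0.831 to 1.00 in AAV8-AGXT mice, and the lowest was that of mouse 308, of whose read pairs 56.3% fell on genes, against 62.4% or more in the other 7. The 7 hepatocyte markers looked up to check the tissue (Alb and others) summed to 45499 to 54531 CPM for AAV8-GFP against 55269 to 77536 for AAV8-AGXT, highest in mouse 308. In bulk liver, fewer cells of a type and less RNA per cell cannot be told apart.

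All 9 peroxins had a higher mean in AAV8-AGXT livers, by 0.13 (Pex2) to 0.72 (Pex16) on the log2 scale, with a median of 0.39 against 0.02 over all tested genes, though scaling by total counts turned the sign of Pex2. Of these, 1 passed the test, Pex3, which rose 1.41-fold (edgeR quasi-likelihood test, adjusted p < 0.05 over all tested genes), and none fell. The background was 2.45% of tested genes called higher and 1.90% called lower (374 and 290 genes, against 144 and 857 with total counts). The groups did not overlap for 4 of the 9 (Pex3, Pex5, Pex7 and Pex19), all higher in AAV8-AGXT, where 8.93% of all tested genes lay apart in that direction and 7.63% in the other. For the CPM of single genes, overlap was judged on the TMM scale only, whose factors themselves lay apart between the groups. Before scaling, AAV8-AGXT mouse 319 had 1164 Pex7 counts among 23940200, and AAV8-GFP mouse 315 had 1236 among 22228093. Overlap under total counts was not tallied. At an unadjusted p under 0.05 in edgeR, 7 of the 9 were higher and 0 lower, against 13.5% and 12.6% of all genes. The call of Pex3 rested on the full set of mice, since of the 8 fits that left out a mouse only that without mouse 309 kept it (adjusted p = 0.0496 in edgeR), and the adjusted p reached 0.151 without mouse 311. Its log2 fold change lay between 0.42 and 0.55 in these fits, with an unadjusted p of 0.00125 to 0.00539 in edgeR. Over all genes the calls higher in these fits ranged from 2 (without mouse 311) to 379 (without mouse 309).

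**Figure D1:**
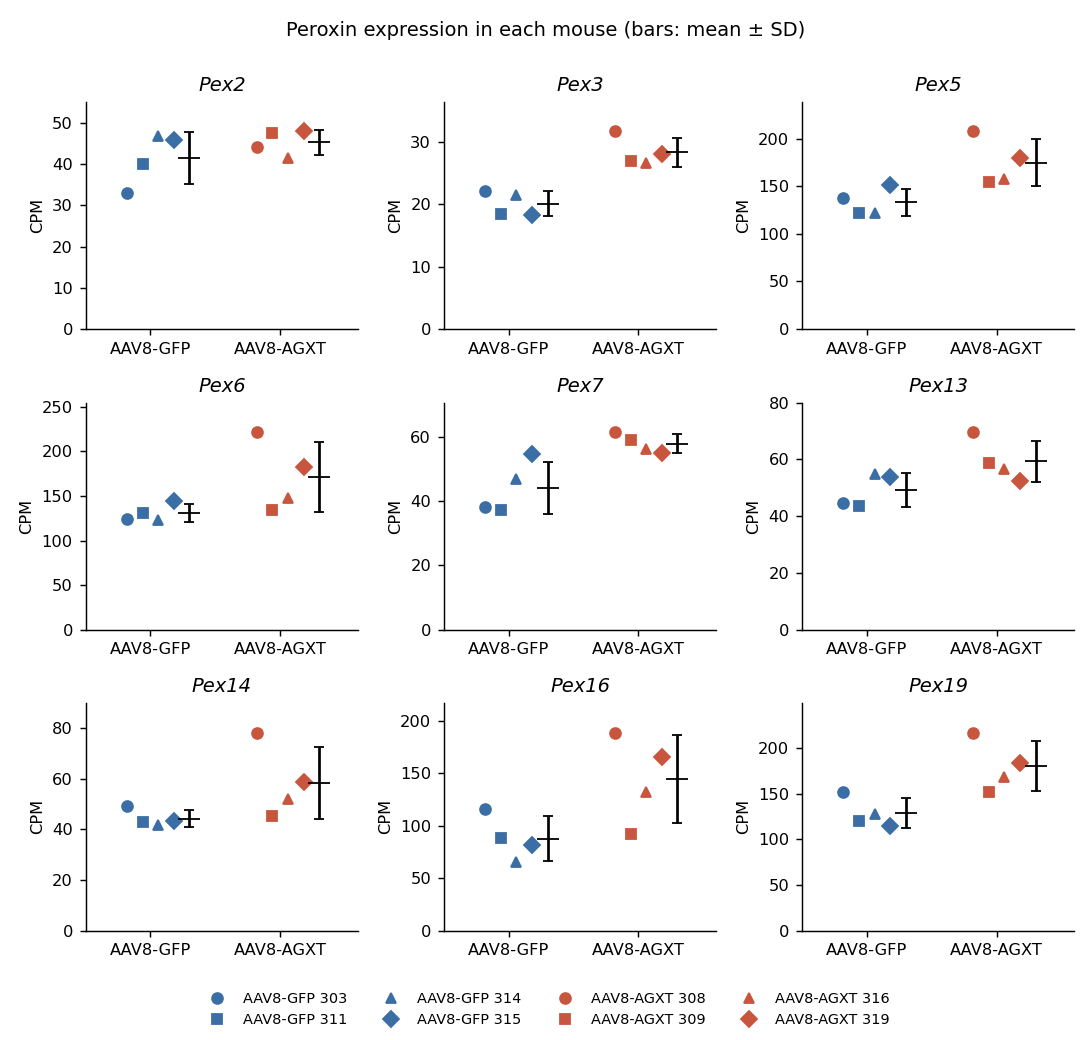
CPM of each of the 9 peroxins in every mouse, with AAV8-GFP mice in blue, AAV8-AGXT mice in red, a symbol for each mouse and the mean ± SD (n = 4) in black. Mouse 308 was the highest of the 8 mice for 8 of the 9 genes.

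Pex3 anchors in the peroxisomal membrane and receives Pex19 with its cargo. The gene (ENSMUSG00000019809) lies on chromosome 10 from 13523842 to 13553142 on the minus strand of GRCm38. It had 22.02, 18.5, 21.4 and 18.2 CPM in AAV8-GFP mice 303, 311, 314 and 315, and 31.6, 26.9, 26.6 and 28.0 CPM in AAV8-AGXT mice 308, 309, 316 and 319. Every AAV8-AGXT mouse was thus above every AAV8-GFP mouse. The log2 fold change was 0.50 (standard error 0.11, 95% interval 0.25 to 0.74, adjusted p = 0.0425 in edgeR). Over the 17 alternative fits its adjusted p lay between 0.00251 (DESeq2) and 0.154 (total counts), and 7 of them called it. Pex3 shares 249 exonic bases with Adat2 on the opposite strand, and the sources used here do not give the strand setting of the count.

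Pex19, the soluble chaperone that brings membrane proteins to Pex3, is encoded on chromosome 1 from 172126755 to 172136493 (ENSMUSG00000003464). Its CPM were 152.0, 120.6, 127.4 and 114.8 in AAV8-GFP and 216.8, 152.2, 168.7 and 184.3 in AAV8-AGXT mice. The groups lay apart by a narrow margin, because mouse 303 at 152.0 nearly reached mouse 309 at 152.2. The log2 fold change of 0.49 (standard error 0.14, 95% interval 0.18 to 0.80) did not pass in edgeR (adjusted p = 0.0732), whereas DESeq2 gave an adjusted p of 0.0179.

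Pex16 inserts Pex3 into membranes, and its gene (ENSMUSG00000027222) lies on chromosome 2 from 92374676 to 92381217. It had 116.2, 88.0, 65.0 and 81.5 CPM in AAV8-GFP mice and 188.6, 92.0, 131.8 and 165.9 CPM in AAV8-AGXT mice. The groups overlapped, with mouse 309 inside the AAV8-GFP range, and the spread was the widest of the 9 genes in both groups (coefficients of variation of 24.4% and 29.1%). Its log2 fold change of 0.72 had a 95% interval of 0.20 to 1.24 (adjusted p = 0.0945 in edgeR and 0.037 in DESeq2). It shares 127 exonic bases with Large2 on the opposite strand.

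Among the import receptors, Pex5 (ENSMUSG00000005069, chromosome 6, 124396816 to 124415067) had 137.2, 122.1, 121.5 and 151.7 CPM in AAV8-GFP and 207.5, 154.7, 157.3 and 179.9 CPM in AAV8-AGXT mice. Pex7 (ENSMUSG00000020003, chromosome 10, 19853900 to 19907689) had 38.1, 37.1, 46.8 and 54.5 CPM in AAV8-GFP and 61.4, 59.0, 56.2 and 54.9 CPM in AAV8-AGXT mice. For both the groups lay apart, though AAV8-GFP mouse 315 came close to the lowest AAV8-AGXT mouse. The receptors had the same log2 fold change to the second decimal, 0.39, with 95% intervals of 0.10 to 0.68 for each, and neither passed (adjusted p = 0.0996 for Pex5 and 0.0979 for Pex7 in edgeR). DESeq2 called Pex5 (adjusted p = 0.0424), and edgeR called Pex7 when mouse 315 was left out (adjusted p = 0.0483). Pex7 varied less in AAV8-AGXT than in AAV8-GFP mice, with coefficients of variation of 5.02% and 18.5%, a difference that was not tested.

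At the docking complex, Pex13 (ENSMUSG00000020283, chromosome 11, 23646479 to 23665959) had 44.8, 43.5, 54.9 and 53.8 CPM in AAV8-GFP and 69.6, 58.6, 56.8 and 52.5 CPM in AAV8-AGXT mice. Pex14 (ENSMUSG00000028975, chromosome 4, 148960535 to 149099876) had 49.2, 42.9, 41.6 and 43.3 CPM in AAV8-GFP and 78.1, 45.1, 51.8 and 58.7 CPM in AAV8-AGXT mice. The groups overlapped for both genes, and mouse 308 held the highest value of each. Pex13 had a log2 fold change of 0.27 (95% interval -0.00038 to 0.54, adjusted p = 0.191 in edgeR) and Pex14 one of 0.40 (95% interval 0.05 to 0.75, adjusted p = 0.146). Without mouse 308 these values were 0.17 and 0.22. Pex14 shares 1776 exonic bases with Gm17029 on the opposite strand, the most of the 9.

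In the machinery that returns receptors to the cytosol, Pex6 (ENSMUSG00000002763, chromosome 17, 46711463 to 46725541) had 124.4, 131.1, 122.5 and 144.2 CPM in AAV8-GFP and 221.3, 134.7, 147.1 and 181.9 CPM in AAV8-AGXT mice. Its groups overlapped because mouse 309 lay below mouse 315. The log2 fold change was 0.39 (95% interval 0.04 to 0.74, adjusted p = 0.154 in edgeR), and 0.23 without mouse 308. Pex2 (ENSMUSG00000040374, chromosome 3, 5560188 to 5576239) had 33.0, 40.1, 46.7 and 45.8 CPM in AAV8-GFP and 44.2, 47.7, 41.4 and 47.9 CPM in AAV8-AGXT mice. It was the one gene of the 9 in which mouse 308 was not the highest, and it had the smallest log2 fold change, 0.13 (95% interval -0.14 to 0.40, adjusted p = 0.532 in edgeR). With total counts in place of TMM the sign of Pex2 turned, to -0.11, and without mouse 303 its log2 fold change was 0.037.

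**Figure D2:**
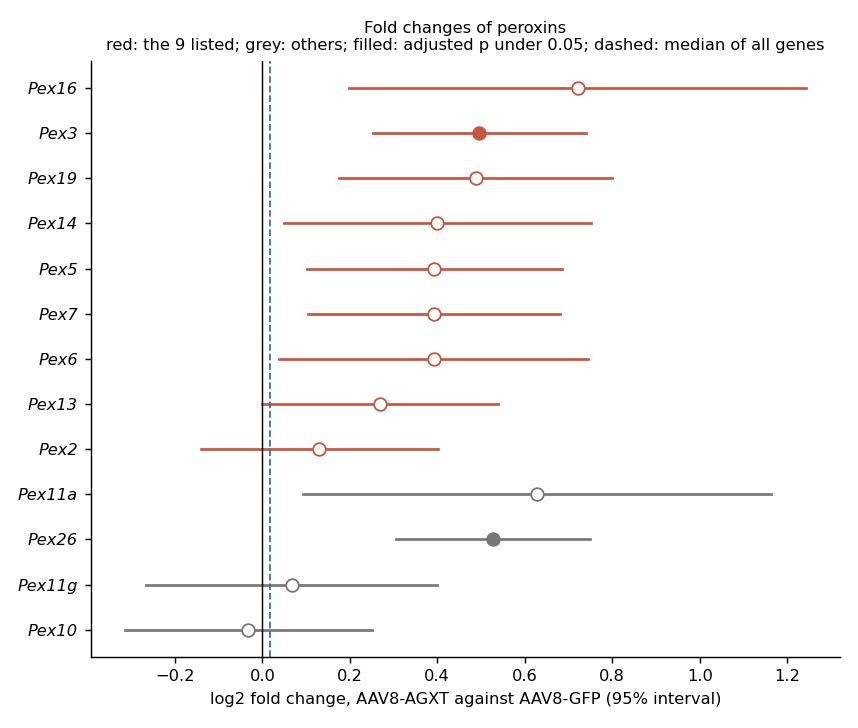
Log2 fold change (points) with its 95% interval (lines) for the 9 listed peroxins in red and 4 other peroxins in grey, filled where the adjusted p was under 0.05 in edgeR. Pex3 and Pex26 are filled, and the intervals of Pex2, Pex13, Pex10 and Pex11g reach below 0.

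To compare abundance between genes, CPM were divided by the kilobases of exon of each gene, counting each exonic base of the annotation once. In AAV8-GFP mice Pex16 stood highest at 49.4 ± 12 CPM per kilobase (SD, n = 4), followed by Pex6 at 34.4 ± 2.59, Pex5 at 33.8 ± 3.64 and Pex19 at 33.7 ± 4.29. The ranges of these 4 over mice overlapped, although Pex16 stood above Pex6, Pex5 and Pex19 within every mouse of both groups. Below them came Pex2 at 18.2 ± 2.78, Pex13 at 10.6 ± 1.28 and Pex14 at 7.05 ± 0.54 CPM per kilobase, each apart from its neighbours. Pex3 at 4.23 ± 0.42 and Pex7 at 3.65 ± 0.68 were the lowest, and their ranges overlapped. The annotated exons of Pex7 cover 12092 bases, the most of the 9. In AAV8-AGXT mice the places were the same except that Pex19, at 47.3 ± 7.21 CPM per kilobase, stood above Pex6 and Pex5, with overlapping ranges. The ranges of Pex13 and Pex14 overlapped there, although Pex13 was the higher within every AAV8-AGXT mouse, and those of Pex3 and Pex7 did not.

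**Figure D3:**
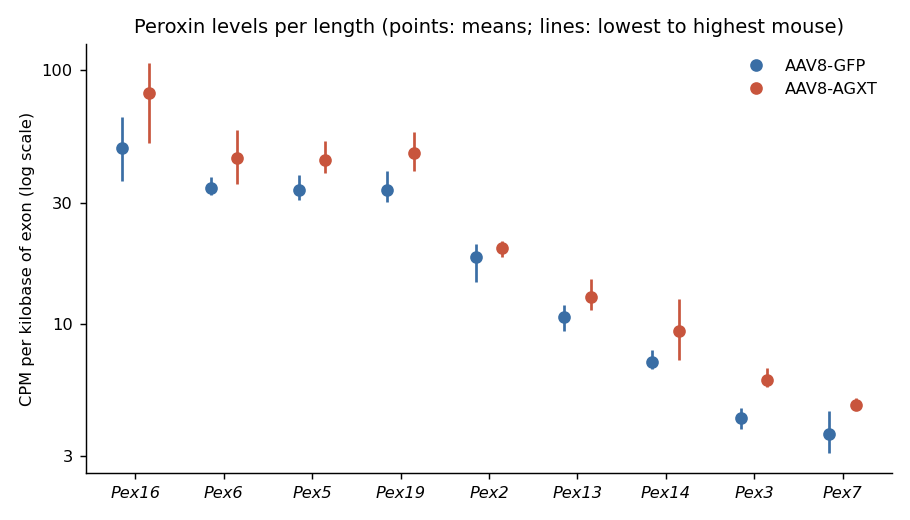
CPM per kilobase of exon on a log axis for the 9 peroxins, ordered by their AAV8-GFP mean, with points for group means and lines from the lowest to the highest of 4 mice. The mean of Pex16 in AAV8-GFP mice, 49.4, was far above that of Pex7, 3.65.

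The mice differed in much the same order for most members. Mouse 308 was the highest of 8 for 8 genes and mouse 319 for the remaining one, Pex2, while the lowest place fell to an AAV8-GFP mouse for all 9 genes. These places are on the TMM scale, where mouse 308 had the lowest factor (0.831), which raises its CPM. Before scaling, mouse 309 had more Pex7 counts than mouse 308 (982 against 890) in a smaller library. The summed CPM of the 9 genes were 717, 644, 648 and 708 in AAV8-GFP and 1119, 771, 838 and 954 in AAV8-AGXT mice. Without mouse 308, the mean of all 9 genes was still higher in AAV8-AGXT, the median log2 fold change was 0.29, and no member passed (Pex3 adjusted p = 0.0897 in edgeR). In that fit 86 of 15795 genes were called higher.

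Ratios between partners in the same mouse do not depend on how libraries are scaled, and 5 pairs were compared. The ratio of Pex5 to Pex7 counts ranged from 2.60 to 3.60 in AAV8-GFP and from 2.62 to 3.38 in AAV8-AGXT mice, with geometric means of 3.04 and 3.0 (two-sided exact permutation test, p = 0.943). That of Pex3 to Pex19 had geometric means of 0.156 and 0.158 (exact permutation p = 0.886) and that of Pex13 to Pex14 1.11 and 1.03 (exact permutation p = 0.6). For Pex16 to Pex3 the means were 4.29 and 4.95 (exact permutation p = 0.457), and for Pex6 to Pex2 they were 3.17 and 3.72 (exact permutation p = 0.314). Adjusted over the 5 pairs, p was 0.943 for each, and 4 mice against 4 allow no p below 0.0286. The groups overlapped for every pair. The differences in log2 ratio lay between -0.10 and 0.23, all smaller than the pooled standard deviation of their pair, so that a shift of one partner against the other was not detectable with these mice.

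Like the peroxins, the hepatocyte markers had higher means in AAV8-AGXT mice. The mean log2 CPM of the 7 markers was higher by 0.40 in AAV8-AGXT mice, and none of the 7 passed the test (median log2 fold change 0.39). When each peroxin was expressed relative to that mean in the same mouse, a comparison chosen after seeing the data, the median difference was -0.02, with 4 members above 0 and 5 below, from -0.26 for Pex2 to 0.30 for Pex16. Pex3 kept 0.09. No member had groups that lay apart on this scale, on which the share of all tested genes was not computed. The 7 markers themselves had log2 fold changes from 0.15 to 0.77. Among markers of other cells, 5 of 5 cholangiocyte markers had negative log2 fold changes (summed 225 to 673 CPM in AAV8-GFP and 74.1 to 272 in AAV8-AGXT mice). So did 6 of 7 stellate cell and fibroblast markers (516 to 924 and 204 to 577 CPM) and 5 of 7 macrophage markers (421 to 771 and 176 to 517 CPM). Of these markers 1, Acta2, passed. Over all tested genes, 7274 of 15248 had negative log2 fold changes. T and NK cell markers summed to 7.42 to 14.5 and 2.90 to 9.50 CPM, and neutrophil markers to 4.54 to 12.9 and 2.21 to 8.97 CPM. All 6 endothelial markers had positive log2 fold changes (median 0.23), none of them called, and summed to 125 to 188 and 134 to 240 CPM. The part of these shifts in the peroxin values was not tested. The relative values above are a description and cannot separate the share of a cell type from RNA per cell.

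**Figure D4:**
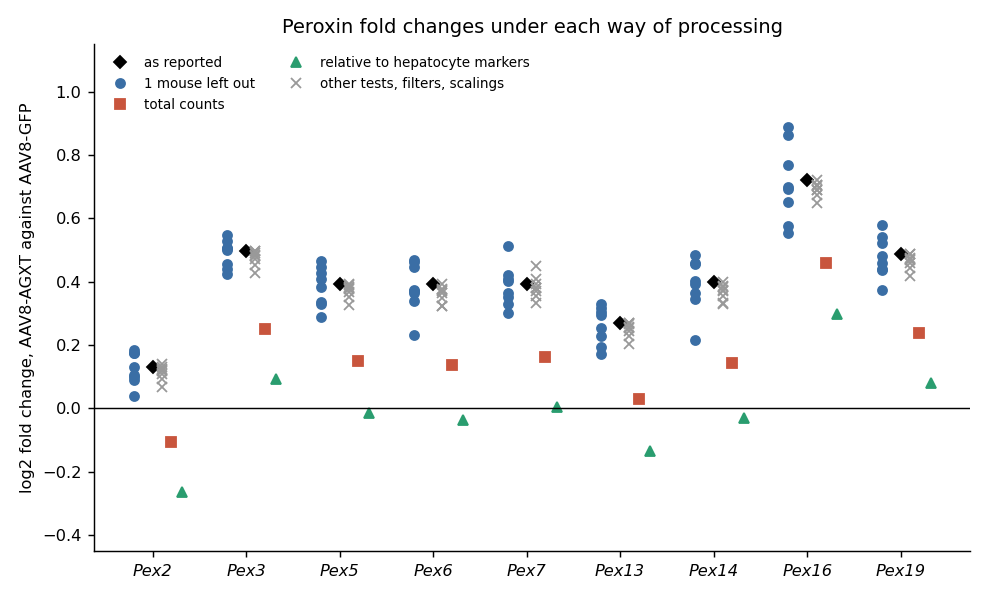
Log2 fold change of each peroxin as reported (black), with 1 mouse left out (blue), with total counts (red), relative to the hepatocyte markers of the same mouse (green) and under the remaining tests, filters and scalings (grey). Most values lie above 0, whereas relative to the markers they lie between -0.26 and 0.30.

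Of 8 further peroxins, 7 were tested and 1 passed, where 2.45% of all tested genes were called higher. This gene was Pex26, the membrane anchor of the ATPase that holds Pex6 (ENSMUSG00000067825). It had 27.1, 24.4, 23.8 and 25.7 CPM in AAV8-GFP and 37.5, 33.4, 34.1 and 40.5 CPM in AAV8-AGXT mice, with no overlap. With a log2 fold change of 0.53 and a standard error of 0.10 it was called by edgeR (adjusted p = 0.0341), by 12 of 17 alternative fits, and by 4 of the 8 that left out a mouse (303, 309, 315 or 316). It shares 133 exonic bases with Gm44014 on the opposite strand. Pex11a, which elongates peroxisomes before division and is a known PPARα target, was the most abundant of the further peroxins at 241.9 ± 59.7 and 373.9 ± 126.1 CPM (SD, n = 4 each), with a log2 fold change of 0.63 and overlapping groups (adjusted p = 0.138 in edgeR), and 0.35 without mouse 308. Pex10, which belongs to the same ubiquitin ligase as Pex2, had a log2 fold change of -0.03 against the 0.13 of Pex2, and both 95% intervals include 0. Pex11g had 0.07, which fell below 0 with total counts. Pex5l, a relative of Pex5 known from brain, held 0 to 12 read pairs per mouse and was not tested.

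The proteins that peroxins import were described by 3 lists. Of 36 tested PTS1 enzymes, the cargo of Pex5, 6 were called higher and 0 lower by edgeR, with a median log2 fold change of 0.44. At an unadjusted p under 0.05 in edgeR, 23 were higher and 0 lower. Over all tested genes 2.45% were called higher and 1.90% lower, and this background holds for the lists that follow. At an unadjusted p under 0.05 in edgeR it was 13.5% and 12.6%. Nudt7, which hydrolyses coenzyme A, went from 154.5 ± 49.8 CPM (SD, n = 4) under AAV8-GFP to 438.1 ± 148.4 CPM under AAV8-AGXT and rose by 1.504 on the log2 scale (adjusted p = 0.0348 in edgeR). The bifunctional β-oxidation enzyme Ehhadh rose from 773.5 ± 270.6 to 2087 ± 796.4 CPM (log2 fold change 1.43, adjusted p = 0.0376 in edgeR), and Ephx2, Hacl1 (whose exons overlap Btd and Gm49387) and mouse Agxt by 0.82, 0.87 and 0.90 on the log2 scale. Of the 8 fits that left out a mouse, 3 kept the call of Nudt7, 2 that of Ehhadh, 1 that of Ephx2 (without mouse 309), 2 that of Hacl1 and 1 that of Agxt (without mouse 309). Over all genes these fits called between 2 and 379 higher, against 374 with all mice. Mouse Agxt had 163.8 ± 15.8 and 305.2 ± 98.3 CPM (SD, n = 4 each), and whether read pairs of the human transgene were counted on it was not tested. All 4 PTS2 enzymes, the cargo of Pex7, were tested and 0 were called in edgeR. The most abundant, Acaa1b, had a log2 fold change of 0.64 (adjusted p = 0.132 in edgeR), or 0.34 without mouse 308, and its reads may be shared with its paralog Acaa1a. At an unadjusted p under 0.05, 3 of the 4 were higher and 0 lower. Of 11 peroxisomal membrane proteins, 2 were called higher, the channel-forming Pxmp2 (log2 fold change 0.88, adjusted p = 0.0198 in edgeR) and the fatty acid transporter Abcd3 (0.76, adjusted p = 0.0376). Their calls were kept in 5 and 2 of the 8 fits that left out a mouse. The median over the 11 was 0.32.

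Genes of peroxisome division and turnover stood nearer to the median of all genes. Among the 6 tested, which include the fission proteins Dnm1l, Fis1 and Mff and the autophagy receptors Nbr1 and Sqstm1, 0 were called in either direction by edgeR and 0 had an unadjusted p under 0.05, with log2 fold changes from -0.05 to 0.26 and a median of 0.06. Their summed levels were 1272 to 1396 CPM for AAV8-GFP against 1331 to 1365 for AAV8-AGXT. Whether this list differed from the peroxins was not tested. Among 6 regulators of peroxisome genes, Ppara passed (log2 fold change 0.89, adjusted p = 0.0376 in edgeR, kept in 2 of the 8 fits that left out a mouse), whereas its partner Rxra, the most abundant, narrowly did not (0.67, adjusted p = 0.0502).

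**Figure D5:**
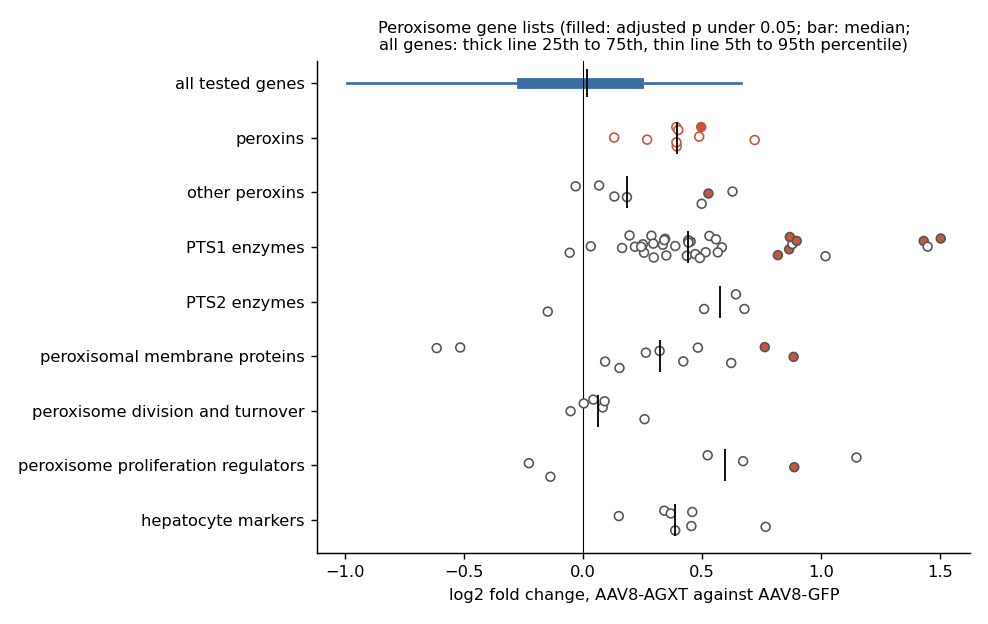
Log2 fold change of every tested gene in the peroxins, 6 other peroxisome lists and the hepatocyte markers (circles, filled where the adjusted p was under 0.05), with list medians as bars and the spread of all tested genes as a blue line. The peroxin median of 0.39 equals that of the hepatocyte markers to the second decimal and lies above the 75th percentile of all genes, 0.23.

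The genes whose pattern over the 8 mice was most like the mean standardised log2 CPM of the 9 peroxins were Atl2, Gstz1, Slc22a5, Tfam and Prdx6, with Pearson correlations of 0.990 to 0.992 and Spearman correlations of 0.952 to 1. These are descriptions over 8 libraries that share their scaling and their 2 groups, chosen as the highest of all tested genes, and 132 genes that are no members had a correlation above 0.95. Centred within each group, the 5 genes had correlations of 0.968 to 0.979, in the same mice by which they were chosen, so this is no separate support. Slc22a5, the carnitine transporter, had 35.4 to 46.8 CPM for AAV8-GFP against 75.4 to 145.7 for AAV8-AGXT, and Tfam, which packages mitochondrial DNA, had 32.3 to 35.3 and 40.7 to 49.4 CPM. For both, mouse 308 was the highest. Of the members, Pex5 followed the mean of the others most closely (r = 0.946 over 8 mice) and Pex2 least (r = 0.314).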

How the data were processed

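RNA was sequenced by the authors from stranded mRNA libraries, 1 per mouse. Per the paper's methods and the submitters' processing notes, read pairs were checked with FastQC, trimmed with Trimmomatic, mapped with HISAT2 to GRCm38 and counted per Ensembl gene with HTSeq. The deposited values are raw counts, without normalization. The tallies that name no gene (no feature, ambiguous, low quality, not aligned, not unique) were left out, which kept between 56.3 and 69.1% of tallied read pairs.

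Symbols, positions and exon lengths came from GENCODE M21 (GRCm38), which held 52489 of the 52636 genes. Counts were tested in R 4.3.3 with edgeR 4.0.16 (filterByExpr, TMM, quasi-likelihood test, treatment as the only term, Benjamini-Hochberg over 15248 genes, threshold 0.05). Intervals use the standard error and total degrees of freedom. The common biological coefficient of variation over all tested genes was 23.3%. The within-group coefficients of variation of the peroxins ran from 5.02% (Pex7) to 29.1% (Pex16), both in AAV8-AGXT mice. Spread between mice and counting error were not separated for these genes. The tests were checked on simulated data with fold changes larger than those of the peroxins, so not at the sizes seen here. Alternatives were DESeq2 1.42.0, limma 3.58.1 (voom, with and without quality weights), robust estimation, 3 scalings, 2 filters and each mouse left out. The authors used DESeq2.

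The members, lists and tests were chosen with earlier results of these data known. Genes named are the 9 peroxins, further peroxins, called or most abundant list genes, and the 5 most like the peroxins. Of the markers Alb and Acta2 are named, Acta2 after its values were seen. Some list genes enter the counts of their lists and are not reported singly here. The likeness used log2 CPM with a prior count of 2.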

Additional observations from a re-analysis of the deposited data

How the results depend on the processing

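Of the 9 peroxins, 1 was called higher as reported. The count was 4 with DESeq2, 2 with limma voomWithQualityWeights, and 0 with upper-quartile normalization, with total counts and with no low-count filter. With each mouse left out it was between 0 and 2. The number called lower was 0 in every fit run, against 0 (without mouse 311) to 1024 (DESeq2) over all genes. Of the 70 other peroxisome genes tested, 10 were called higher as reported, 28 with DESeq2, 25 with limma voomWithQualityWeights and 5 with total counts, where 1 was called lower, and between 0 and 11 with each mouse left out. Over all genes the calls higher moved too, from 374 of 15248 as reported to 1054 of 16749 with DESeq2. They were 804 with limma voomWithQualityWeights, 254 with upper-quartile normalization and 144 with total counts, of 15248 each. The fit with no low-count filter called 415 of 28338 higher. With each mouse left out the calls lay between 2 of 15343 (without mouse 311) and 379 of 15796 (without mouse 309). Total counts lowered the median of all genes to -0.22 and that of the peroxins to 0.15, and all 9 peroxins stayed above the median of all genes in each of the 17 fits. The sign turned with total counts for Pex2 (-0.11) and Pex11g (-0.17), and without mouse 311 for Pex10 and Pex11g, none of which was called. With each mouse left out Pex10 lay between -0.089 and 0.012 and Pex11g between -0.017 and 0.202. Relative to the hepatocyte markers it turned for Pex2 (-0.26), Pex5 (-0.015), Pex6 (-0.037), Pex13 (-0.14) and Pex14 (-0.031). The partner ratios moved by less than their pooled standard deviation in all 50 recomputed values. Leaving out 1 of 4 mice cannot move a difference by more than that, so these refits are no separate support. No cause of the peroxin differences was tested. No paired analysis was possible because the animal numbers are not shared between the groups.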
